A study of Mus musculus with 8 samples.

Results

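The insulin-like growth factor (Igf) genes described here were 10 members of 32285 genes in a pooled single-cell count matrix of embryonic mouse kidney, each matched to 1 row by its symbol. They were the ligand gene Igf1, the receptor genes Igf1r and Insr, the binding protein genes Igfbp2, Igfbp3, Igfbp4, Igfbp5 and Igfbp7, and the RNA-binding protein genes Lin28b and Igf2bp1. The pool was 1 droplet library (10x Genomics, 3′ end of the transcript) of male kidneys, labelled E17.5 although the study's methods name a later embryonic stage, to which every mouse contributed cells marked by its own lipid-bound tag. Mice 1 and 2 were Trim28Δ/Δ (ko), and mice 3 and 4 were Trim28f/f (wt), with both Trim28 alleles floxed. In Trim28Δ/Δ mice the Six2-cre transgene, Tg(Six2-EGFP/cre)1Amc/J, drives recombination in nephron progenitor cells (NPCs) and so in the nephron epithelia that descend from them, and not in the collecting duct, stromal, endothelial or immune lineages. The 6 bulk libraries of newborn kidney were not analysed here.

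Igf1 and Igf2 bind the Igf1 receptor, a tyrosine kinase, and the related insulin receptor Insr, and signal through Irs adaptors, phosphatidylinositol 3-kinase and Akt to growth, survival and metabolism. Igf binding proteins hold the ligands in the extracellular space, prolong their half-life and limit or direct their access to the receptor, while proteases such as Pappa release them. Lin28b blocks the maturation of let-7 microRNAs, which in turn repress Lin28b, Igf2bp1 and other genes of fetal tissue. Prolonged Lin28b activity in the developing kidney is known to extend nephrogenesis and can give rise to Wilms tumour, a kidney tumour of childhood.

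The let-7 family was not measured in these libraries of polyadenylated RNA, but a match to its seed was searched in transcripts of the members. The 9 mature mouse let-7 names matched in RefSeq (GRCm38.p6), from let-7a to let-7i and miR-98, had the same seed, bases 2 to 8 from the 5′ end, shown in capitals in 3 of them. Their genes lay on several chromosomes, and the copies shown were Mirlet7a-1 (chr13:48538239-48538260, minus strand), Mirlet7b (chr15:85707325-85707346, plus strand) and Mir98 (chrX:151913229-151913250, plus strand).
let-7a-5p: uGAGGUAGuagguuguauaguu
let-7b-5p: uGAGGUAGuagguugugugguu
miR-98-5p: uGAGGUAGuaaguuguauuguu

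The reverse complement of that seed, CTACCTC, was searched on the transcript strand of annotated 3′ UTRs, 1 transcript a gene. It was present in 1722 of 21014 genes (8.19%). Among the members it occurred 4 times in Lin28b, 4 times in Igf2bp1, 2 times in Igf1r, 1 time in Insr and 1 time in Igfbp5, and it was not found in Igf1, Igfbp2, Igfbp3, Igfbp4 or Igfbp7. Long UTRs hold the match more often, and of UTRs of similar length it was in 24.09% for Lin28b, 33.65% for Igf2bp1, 38.05% for Igf1r, 25.14% for Insr and 24.09% for Igfbp5. The first match of each of these members is shown from the 5′ side of the transcript with the seed match, and an A that follows it, in capitals. All sites lay in the 3′ UTR of their gene in GRCm38, that of Lin28b at chr10:45381021-45381044 (minus strand), that of Igf2bp1 at chr11:95961777-95961800 (minus), that of Igf1r at chr7:68229110-68229133 (plus), that of Insr at chr8:3153197-3153220 (minus) and that of Igfbp5 at chr1:72859678-72859701 (minus).
Lin28b: acccgggcgggaagtCTACCTCAt
Igf2bp1: gctgtgcgaagtaaaCTACCTCAa
Igf1r: ttttcaaacatttatCTACCTCAc
Insr: tcttctcagtacagtCTACCTCAg
Igfbp5: cttccccaggtcagcCTACCTCcc
A match is a description of the letters and not evidence of binding. The lack of one in 1 transcript does not show that a gene cannot pair.

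The tags assigned 7363 cells, 1316 and 1491 to the ko mice and 2749 and 1807 to the wt mice, with 25761268 to 52777501 unique molecular identifiers (UMIs, counted molecules) a mouse and a median of 16386 to 17354 UMIs a cell. Clustering gave 23 clusters, of which 20 were named by marker genes into 15 classes, called by the cell type followed by -like, and 3 clusters (972 cells) stayed unnamed. Mouse 3 stood apart. It held 292 of the 375 cells of an early proximal tubule-like cluster led by Igfbp1 and the metallothionein genes Mt1 and Mt2, and 175 of the 176 cells of a collecting duct-like cluster, so that its collecting duct-like cells were nearly all from a cluster the other mice lacked. The S-shaped body-like cluster was led by cell cycle genes such as Top2a. RNA free in the suspension was estimated at 2.159 to 4.525% of a class's UMIs from haemoglobin genes and at 9.386 to 27.662% from markers of other classes.

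UMIs were summed per mouse and class and are given as CPM, counts scaled to an equal UMI total. Tags of the 3′ end do not scale with transcript length, and the values of a gene are compared here between cells and mice, not with those of another gene. Trim28, the targeted gene, measured 27.6 and 24.1 CPM in the NPC-like cells of the ko mice against 137.0 and 159.5 in those of the wt mice (log2 fold change −2.67, SE 0.211, adjusted p = 2.76e-04 by edgeR's quasi-likelihood test). In stroma-like cells, which Six2-cre does not target, it measured 104.7, 100.5, 85.0 and 113.3 CPM in mice 1 to 4. A 3′ count does not read the deleted exons, so this is the level of transcript that remained.

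**Figure D1:**
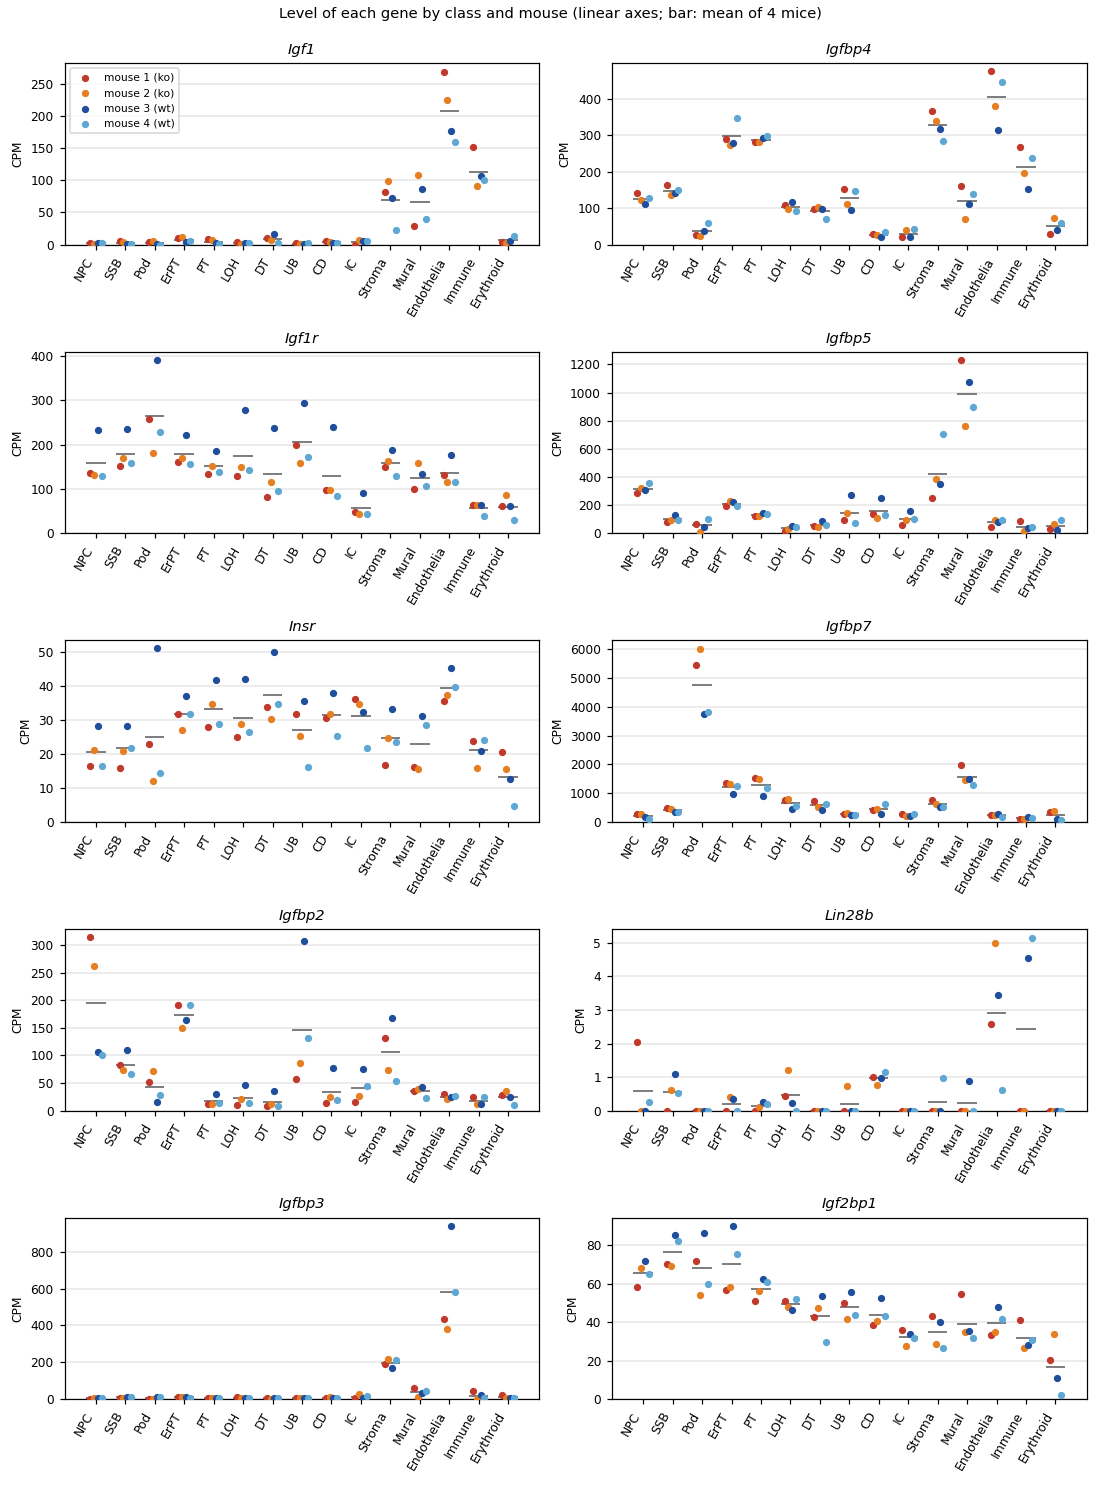
Level of each of the 10 members in CPM (y axis, linear, a scale for each gene) in the 15 marker-defined classes (x axis), with a point for each mouse (ko mice 1 and 2, wt mice 3 and 4) and a bar at the mean of 4 mice. On the axis UB, CD and IC are ureteric bud-like, collecting duct-like and intercalated cell-like, Pod is podocyte-like, SSB is S-shaped body-like, ErPT and PT are early and more mature proximal tubule-like, and DT and LOH are distal tubule-like and loop of Henle-like cells, and the means of Igf1 and Igfbp3 were highest in endothelia-like, of Igfbp5 in mural-like, of Igfbp7 and Igf1r in podocyte-like and of Igfbp2 in NPC-like cells.

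Igf1, the ligand, was a gene of vascular, immune and stromal cells. It measured 268.4, 225.1, 176.3 and 159.6 CPM in the endothelia-like cells of mice 1 to 4, above immune-like cells at a mean of 111.94 (SD 27.06, n = 4) in every mouse. Immune-like, stroma-like (69.04, SD 32.83) and mural-like cells (65.88, SD 37.64) followed, and neighbours in that order overlapped between mice. All other classes, which include every nephron epithelium, had a mean of 8.93 CPM or less, down to 1.58 in ureteric bud-like cells.

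The receptors were spread more evenly. Igf1r was highest in podocyte-like cells with 258.7, 180.8, 391.4 and 228.7 CPM in mice 1 to 4, then in ureteric bud-like cells (206.17, SD 61.44), and lowest in intercalated cell-like cells (56.36, SD 22.31). Its highest class was above its lowest by 4.7-fold, and podocyte-like cells were above ureteric bud-like cells within each of the 4 mice, although the ranges over mice overlapped. Insr ranged from 39.56 CPM (SD 4.22) in endothelia-like cells to 13.3 (SD 6.67) in erythroid-like cells, and the 4 classes at the top of its order overlapped from each to the next.

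The binding protein genes differed in their leading cells. Igfbp2 was highest in NPC-like (195.87 CPM, SD 108.8), early proximal tubule-like (174.14, SD 20.91) and ureteric bud-like cells (145.76, SD 112.52), whose ranges overlapped, and at 17.41 (SD 8.95) in the more mature PT-like cells. Its wide SD in NPC-like and ureteric bud-like cells came with opposite orders of the mice, described below. In the wt mice alone the means were 219.8 CPM in ureteric bud-like, 177.55 in early proximal tubule-like, 110.68 in stroma-like and 103.41 in NPC-like cells, so that NPC-like cells led the order with the ko mice included (ko mean 288.34, against 71.71 in ureteric bud-like cells) and not without them. Early proximal tubule-like cells led instead in 3 alternatives, at 227.59 CPM with the clusters of mouse 3 left out (chosen after seeing the data), at 232.95 with cells assigned by tag share and at 206.71 with a minimum of 2500 UMIs.

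Igfbp3, the main carrier of Igf in serum, and Igfbp4 were both highest in endothelia-like cells. For Igfbp3 the mean there was 583.09 CPM (SD 251.67), above that of stroma-like cells (196.88, SD 21.22) in every mouse, and no other class passed 36.77. Igfbp4 reached 404.59 CPM (SD 71.59) in endothelia-like cells and stayed high in stroma-like (327.51, SD 35.74), early proximal tubule-like (297.25, SD 33.8) and PT-like cells (288.22, SD 8.1), while collecting duct-like cells had 27.26 (SD 5.25). The level of Igfbp3 fell off steeply after 2 classes, and that of Igfbp4 was broad.

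Igfbp5, a binding protein held in the extracellular matrix, was highest in mural-like cells with 1229.2, 761.3, 1076.0 and 898.9 CPM, followed by stroma-like (423.99, SD 196.46) and NPC-like cells (317.85, SD 30.06). The mural-like level was above the stroma-like level in all 4 mice. Igfbp7, a secreted protein with low affinity for Igf that is found in vessel walls and basement membranes, was the podocyte gene of the family. It measured 5459.8, 6013.6, 3745.5 and 3807.8 CPM in podocyte-like cells, above mural-like cells (1547.89, SD 292.04) in every mouse, and remained at 1272.35 (SD 294.38) in PT-like and 1218.59 (SD 177.1) in early proximal tubule-like cells.

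Lin28b was close to the limit of detection. In all 7363 cells it had 85 UMIs in 83 cells (1.13%), with 13, 23, 36 and 13 UMIs in mice 1 to 4. Endothelia-like cells held 28 of the 85 (32.9%) and immune-like cells 8. A UMI was seen in 5.01% of endothelia-like cells (95% exact interval 3.35 to 7.16%, median 12437 UMIs a cell) against 0.303% of PT-like cells (0.0625 to 0.883%, median 22614.5 UMIs), intervals that cover counting error only. By mouse the endothelia-like share was 4.19, 8.26, 6.25 and 0.901% in mice 1 to 4. In immune-like cells it was 4.12% (1.67 to 8.3%, median 13543.5 UMIs), from 7 cells that were all of the wt mice, and by mean CPM immune-like cells led in 2 alternatives, at 3.15 with cells assigned by tag share and at 3.71 with Scrublet doublets left out. In NPC-like cells the mean was 0.58 CPM, and in podocyte-like, distal tubule-like, intercalated cell-like and erythroid-like cells no UMI was counted. The level was too low for a test of genotype in any class.

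Igf2bp1, which binds and stabilizes fetal transcripts, was detected in every class. Its mean was highest in S-shaped body-like (76.79 CPM, SD 8.29), early proximal tubule-like (70.14, SD 15.73), podocyte-like (68.21, SD 14.2) and NPC-like cells (65.78, SD 5.73), which overlapped, and lowest in erythroid-like (16.91, SD 13.44) and immune-like cells (31.69, SD 6.5). The order of its leading classes depended on how cells were assigned and clustered, with podocyte-like or early proximal tubule-like cells first in 3 alternatives.

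Genes with the most similar profile were ranked by Pearson's r of log2(mean CPM + 10) over the 15 classes among 6294 genes that reached 50 CPM in some class, as a description in which all points share the same library. For Igf1 these were Inka1 (r = 0.979), Slfn5 (0.974) and Lgals9 (0.969), and for Igfbp3 the endothelial genes Ldb2 (0.976), Ecscr (0.952) and Fgd5 (0.945). Igf1r was followed most closely by Dtd1 (0.929), Ryk (0.869) and Sema5a (0.857). Igfbp2 came with Rcn1 (0.89), H2afy2 (0.881) and Serf1 (0.864), Igfbp4 with Ralgps2 (0.855), Coro1c (0.836) and Srm (0.83), Igfbp5 with Cplx2 (0.88), Cpm (0.874) and Gucy1b1 (0.873), and Igfbp7 with Speg (0.893), Pawr (0.853) and Arhgef17 (0.817). Igf2bp1 was most like Gtf3a (0.929), Zfp24 (0.923) and Ubap2 (0.905). Insr (4930402H24Rik 0.931, Sypl 0.877, Chmp2b 0.857) and Lin28b (Hhex 0.929, Hlx 0.908, Ctla2b 0.906) did not themselves reach 50 CPM in any class.

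The comparison of genotypes asked in which cells the members differed between Trim28Δ/Δ and Trim28f/f kidneys. In a fit of each class over all its genes, 119 combinations of member and class could be tested. Of these, 2 were called at an adjusted p under 0.05 with ko above wt, Igfbp2 in NPC-like cells and Igf1 in PT-like cells, and 0 with ko below wt. Over all genes and classes 0.18% of tests were called with ko above wt and 0.124% with ko below wt. At an unadjusted p under 0.05 there were 14 with ko above wt and 12 with ko below by edgeR, against 3.02% and 3.5% of all tests, and DESeq2 called 4 and 0, against 0.223% and 0.1% of all tests. With 2 mice of each genotype in 1 library, an exact permutation test cannot pass the threshold, and the p-values measure the spread between these mice only. A fit without 1 mouse leaves a single mouse in that genotype, so its p-values hold only the spread of the other genotype's pair. The number of calls turned on single wt mice, since without mouse 3 it was 8 with ko above and 3 with ko below wt, and without mouse 4 it was 11 and 30, while without mouse 1 or mouse 2 it was 0 and 1 with ko above wt. Calls over all genes rose in the same fits, to 1.18% of tests with ko above and 0.879% with ko below wt without mouse 3 and to 4.54% and 6.1% without mouse 4. They were 0.0985% and 0.131% without mouse 1, and 0.118% and 0.0893% without mouse 2.

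**Figure D2:**
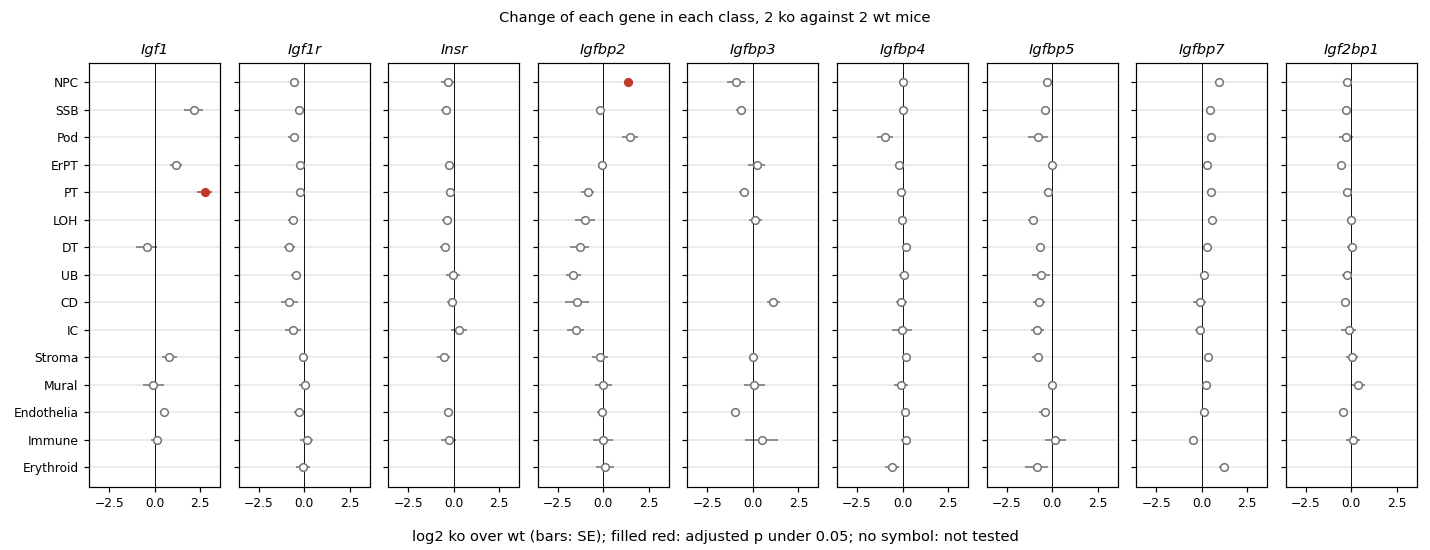
Log2 fold change, ko over wt, of 9 members (panels, x axis) in each class (y axis) as a point with its SE as a bar, 2 ko against 2 wt mice, with filled red points for the 2 tests called at an adjusted p under 0.05, Igfbp2 in NPC-like and Igf1 in PT-like cells. Rows without a point were not tested, as was Lin28b in every class, and the points of Igfbp5 lay below 0 in 14 of 15 classes, those of Igf1r in 13 of 15, and those of Igfbp7 above 0 in 12 of 15. All classes come from the same mice, and the share of all genes with as many folds on the same side was not computed.

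Igfbp2 was higher in the NPC-like cells of Trim28Δ/Δ kidneys. It measured 313.9 and 262.8 CPM in the ko mice (307 and 370 UMIs) and 105.5 and 101.3 CPM in the wt mice (425 and 785 UMIs). Both ko mice were well above both wt mice, and the mice of a genotype lay close together. The log2 fold change was 1.34 (SE 0.155, adjusted p = 0.00324, edgeR), where 0.65% of the 11223 genes tested in NPC-like cells were called with ko above wt. Without mouse 1 the fold was 1.21 and its adjusted p 0.161. A UMI of Igfbp2 was found in 95.7% and 91.8% of ko cells against 73.6% and 74.9% of wt cells, and after thinning each cell to 6800 UMIs in 78.7% and 76.7% against 42.9% and 48.6%. In PT-like cells, where the gene was low, the shares before thinning were 19.8 and 19.4% against 35.4 and 22.8%, at median depths of 21683 to 24976 UMIs a cell. The estimate of free RNA from markers gave 10.5, 10.7, 13.4 and 11.9 CPM of Igfbp2 in the PT-like cells of mice 1 to 4, against measured levels of 12.5, 12.1, 30.8 and 14.3 CPM. The estimate from haemoglobin gave 1.44 to 1.56 CPM there. In NPC-like cells the estimate from markers was 8.1 to 10.14 CPM, under every mouse.

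The difference was present in both clusters of the class, although whether a cluster held the same cell state in both genotypes was not tested. In the cluster led by Tmem100, Six2 and Wnt4 the ko mice had 308.0 and 240.0 CPM (33 and 39 cells) and the wt mice 97.9 and 84.7 (127 and 178 cells). The cluster led by Cited1 had 337.0 and 306.0 CPM (14 and 34 cells) against 122.0 and 122.0 (85 and 213 cells). Outside the named classes, an unnamed cluster led by Pcp4, Lsp1 and Tagln also had higher values in ko mice (225.0 and 224.0 against 134.0 and 79.3 CPM), whereas the unnamed cluster led by Spon1, Fgf8 and Epha4 did not separate the genotypes (42.8 and 45.7 against 111.0 and 43.2 CPM).

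**Figure D3:**
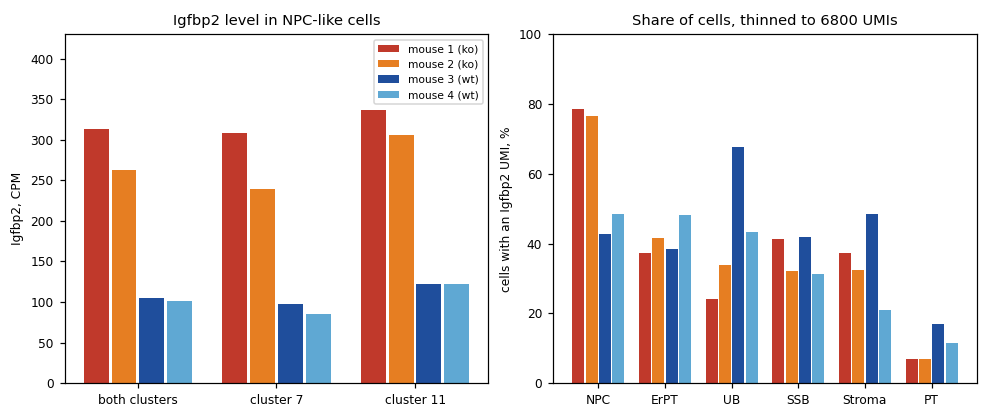
Igfbp2 in each mouse, as CPM of the summed UMIs in NPC-like cells, both clusters together and each alone (left; cluster 7 is led by Tmem100 and cluster 11 by Cited1), and as the percent of cells with a UMI after thinning to 6800 UMIs a cell in 6 classes (right), with a bar for each ko and wt mouse. Both ko mice were above both wt mice in NPC-like cells in either measure and in both clusters, while in PT-like and ureteric bud-like cells both ko mice had the lower shares.

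NPC-like cells of the 2 genotypes were not alike in other markers. The 8 NPC markers summed to 282.2 and 402.7 CPM in ko mice against 803.2 and 982.3 in wt mice, with 7 of 8 lower in both ko mice and none at 0. Cited1, which marks uncommitted progenitors, had 25.6 and 29.1 CPM against 266 and 312. The 8 markers of the renal vesicle, the next stage of the nephron, summed to 2445.8 and 2107.1 CPM in ko mice against 1362.8 and 1333.2 in wt mice, with 5 of 8 higher and 1 lower in both ko mice. S-shaped body markers moved the same way (223.9 and 261.3 against 148.2 and 114.0 CPM, 5 of 8 higher in both ko mice), and so did podocyte markers (462.2 and 499.3 against 374.4 and 224.9 CPM, 4 of 8 higher in both ko mice). Early proximal tubule markers, of a class with high Igfbp2, summed to 408.0 and 353.7 against 275.6 and 189.8 CPM, with 2 of 7 higher and 1 lower in both ko mice. Some lists of later or other segments, low in these cells, also differed. Collecting duct markers were higher in ko mice (153.4 and 176.8 against 120.4 and 134.3 CPM, 5 of 8 higher in both), where collecting duct-like cells had 4995.5 to 7650.1 CPM. So were distal tubule markers (97.1 and 134.9 against 90.9 and 80.1 CPM, 4 of 8) and intercalated cell markers (22.5 and 25.6 against 15.1 and 16.1 CPM, 1 of 6). Ureteric bud markers overlapped (86.9 and 142.0 against 115.9 and 114.3 CPM), and none of these lists had a marker at 0. Free RNA was estimated at 12.111 to 15.164% of the UMIs of NPC-like cells from markers of other classes, and at 2.631 to 2.841% from haemoglobin. Its part in these sums was not tested, nor was the part of the marker shifts in the Igfbp2 result. NPC-like cells made up 3.571 and 4.896% of cells in ko mice and 7.712 and 21.638% in wt mice, and PT-like cells 23.784 and 23.206% against 5.347 and 10.183%.

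No other class was called for Igfbp2, and the classes differed in which genotype was higher. Early proximal tubule-like cells overlapped as a class. Their cluster led by Osr2 had 207.0 and 176.0 CPM in ko mice against 309.0 and 218.0 in wt mice, with no overlap. The cluster led by Igfbp1, with 14 and 29 cells in ko mice and 292 and 40 in wt mice, had 91.2 and 36.8 against 67.9 and 112.0 CPM. Ureteric bud-like cells, which the transgene does not target, had 56.6 and 86.8 CPM in ko mice against 308.1 and 131.5 in wt mice (log2 fold change −1.64, SE 0.386, adjusted p = 1.0), with no overlap but a wide spread in wt mice. There the sums of distal tubule markers (2792.3 and 2296.9 against 1210.2 and 1679.7 CPM) and collecting duct markers (3127.5 and 3049.1 against 1818.9 and 1979.0 CPM) were higher in ko mice. In each list 1 of 8 was higher in both. Early proximal tubule markers were lower, at 104.2 and 98.7 against 166.5 and 138.8 CPM (4 of 7 lower, 1 higher). Ureteric bud markers overlapped, and the part of these lists was not tested. PT-like cells had 12.5 and 12.1 against 30.8 and 14.3 CPM (−0.87, SE 0.339, adjusted p = 0.467), the ko values being close to the marker estimate of free RNA and above the haemoglobin estimate. Intercalated cell-like cells had 16.1 and 25.5 against 75.3 and 43.6 CPM on 4, 11, 42 and 22 UMIs (−1.51, SE 0.462, adjusted p = 0.682). There the fold was −1.80 without mouse 4, and whether these cells descend from the lineage of the transgene was not examined. Stroma-like cells overlapped, with 132.4 and 73.0 against 167.2 and 54.2 CPM (−0.19, SE 0.445, adjusted p = 0.999). Without mouse 4 the folds in ureteric bud-like and PT-like cells were −2.07 and −1.38. The stroma-like fold changed direction with the mouse left out, at −0.68 without mouse 1, 0.18 without mouse 2, 0.89 without mouse 3 and −0.74 without mouse 4. Podocyte-like cells had higher values in both ko mice, 52.4 and 72.3 against 16.0 and 28.9 CPM on 16, 12, 15 and 12 UMIs (1.45, SE 0.451, adjusted p = 0.407), called with Scrublet doublets left out (3.34, adjusted p = 0.0497). Erythroid-like cells also had higher values in both, with 28.7 and 36.3 against 25.1 and 9.14 CPM on 7, 14, 18 and 4 UMIs (0.10, SE 0.493, adjusted p = 0.977, below 0 in 6 of 16 alternatives).

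The fold of Igfbp2 differed between NPC-like and PT-like cells when tested directly. PT-like levels were near the marker estimate of free RNA in all but 1 mouse, and the part of free RNA was not tested. In 1 model of both classes with the mouse as a block, the log2 fold change in NPC-like cells exceeded that in PT-like cells by 2.12 (SE 0.297, adjusted p = 0.005, edgeR), where 1.27% of the 13088 genes tested were called in either direction. Against stroma-like cells the difference was 1.45 (SE 0.373, adjusted p = 0.165), where 0.377% of genes were called, so that Igfbp2 was not shown to differ there. With a mouse left out it was 1.77 (mouse 1), 1.17 (mouse 2), 0.49 (mouse 3) and 2.09 (mouse 4). Between PT-like and stroma-like cells no member was called, where 0.166% of genes were.

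Igf1 was the second member called. In PT-like cells it measured 9.04 and 7.64 CPM in ko mice (70 and 67 UMIs) and 1.77 and 0.752 CPM in wt mice (7 and 4 UMIs). The log2 fold change was 2.76 (SE 0.406, adjusted p = 0.0459, edgeR), where 0.41% of the 12434 genes tested in PT-like cells were called with ko above wt. Both ko mice were above the wt mice, but all these levels were far under the 207.34 CPM of endothelia-like cells. RNA free in the suspension, by the estimate from markers, would give 2.45 to 3.13 CPM in PT-like cells, a range under both ko values and over both wt values, and by the estimate from haemoglobin 0.337 to 0.365 CPM, under all 4.

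A UMI of Igf1 was found in 8.63 and 10.1% of PT-like cells in ko mice and in 4.08 and 2.17% in wt mice, and in 2.74 to 4.26% of NPC-like cells across the 4 mice. In the 2 PT-like clusters the ko mice had 5.8 and 6.53 CPM against 1.15 and 1.16, and 14.9 and 9.14 CPM against 6.23 and 0.0 (3 and 0 UMIs). The second of these, led by Aadat and Cryab, held 129 of 313 and 170 of 346 PT-like cells in ko mice and 18 of 147 and 71 of 184 in wt mice, and Igf1 was higher in it than in the first, led by Spp2 and Fbp1, in 3 of 4 mice. The part of this makeup in the class values was not tested. The summed markers of the cells that carry most Igf1 overlapped between genotypes in PT-like cells, for endothelia at 58.5 and 94.2 against 65.3 and 75.5 CPM, for immune cells at 37.7 and 22.6 against 21.2 and 28.2, for stroma at 62.7 and 39.1 against 137.2 and 42.1 and for mural cells at 59.5 and 102.4 against 86.7 and 44.3. None of the markers of these 4 lists was at 0. PT markers themselves were lower in ko mice (6244.0 and 5368.5 against 7575.4 and 6718.2 CPM, 5 of 9 lower in both), and their part in the result was not tested.

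The Igf1 call was not stable. It passed the threshold in 7 of 18 alternatives, and the adjusted p ranged up to 0.313, reached without mouse 1; without mouse 2 it was 0.276. The fold stayed positive in all 18, from 1.47 upwards. Leaving out the clusters mostly of mouse 3 removed no PT-like cells, so that alternative could not change the call. Igf1 was too low to be tested in NPC-like cells alone. Its fold in PT-like cells exceeded that in stroma-like cells by 1.78 (SE 0.464, adjusted p = 0.256, edgeR), a difference that was not called.

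Igf1 was also higher in both ko mice, without a call, in endothelia-like cells (268.4 and 225.1 against 176.3 and 159.6 CPM, log2 fold change 0.50, SE 0.173, adjusted p = 0.702) and in early proximal tubule-like cells (10.1 and 11.5 against 4.2 and 5.47 CPM, 1.18, SE 0.353, adjusted p = 0.506). Immune markers in the early proximal tubule-like cells were higher in ko mice, at 57.9 and 36.8 against 28.4 and 24.8 CPM (5 of 8 higher in both, 0 lower). Those of endothelia, stroma and mural cells overlapped there, and the part of these markers was not tested. S-shaped body-like cells had 4.88 and 4.07 against 0.957 and 1.02 CPM on 11, 13, 7 and 4 UMIs (2.14, SE 0.521, adjusted p = 0.366), with the free RNA estimate of 2.28 to 3.32 CPM between the genotypes. They were called in 3 of 17 alternatives (adjusted p from 0.0276). In stroma-like cells, 81.8 and 99.1 against 72.5 and 22.7 CPM gave 0.80 (SE 0.417, adjusted p = 0.999). Stroma markers in these cells were higher in ko mice too, at 10680.4 and 9783.7 against 7881.4 and 5679.1 CPM (5 of 8 higher in both, 0 lower). Their part in the Igf1 values was not tested. Without mouse 3 the endothelia-like and stroma-like folds were 0.62 and 1.94. Without mouse 4 those of endothelia-like and early proximal tubule-like cells were 0.40 and 1.31. Immune-like and mural-like cells overlapped.

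**Figure D4:**
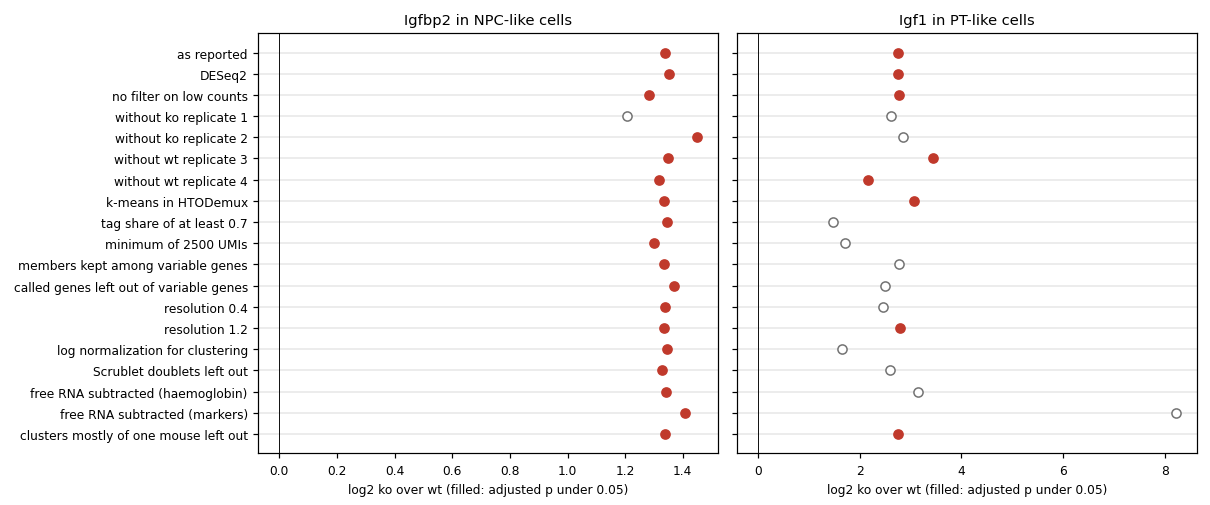
Log2 fold change, ko over wt, of Igfbp2 in NPC-like cells (left) and Igf1 in PT-like cells (right) as reported and under each alternative, with filled points where the adjusted p was under 0.05 and replicates 1 to 4 standing for mice 1 to 4. Igfbp2 stayed between 1.21 and 1.45 and lost its call without ko mouse 1, while Igf1 ranged from 1.47 to 8.21 and passed in 7 of 18 alternatives.

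Among the receptors no difference was called. Igf1r had 13 of its 15 folds below 0, with 137.0 and 131.4 against 233.9 and 130.1 CPM in NPC-like cells (log2 fold change −0.57, SE 0.238, adjusted p = 0.458) and 258.7 and 180.8 against 391.4 and 228.7 CPM in podocyte-like cells (−0.57, SE 0.318, adjusted p = 0.742). In both classes the 2 ko mice and mouse 4 were close or overlapped and mouse 3 was high. Without mouse 4, which left mouse 3 as the wt, the folds were −0.93 and −0.90. Mouse 3 was the highest of the 4 mice for Igf1r in 13 of 15 classes, and 3.21% of 2148 genes tested in all classes had it highest as often. For Igf1r both ko mice were below both wt mice in 0 of 15 classes and above both in 1. Over all genes and classes 14.5% of tests had both ko mice below and 22.2% both above. Insr had 11 of 12 folds below 0, the range being −0.55 to 0.31, and mouse 3 was its highest mouse in 12 of 15 classes.

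Igfbp7 had 12 of its 15 folds above 0, none of them called. In podocyte-like cells 5459.8 and 6013.6 CPM in ko mice stood against 3745.5 and 3807.8 (log2 fold change 0.53, SE 0.171, adjusted p = 0.431). PT-like cells had 1535.6 and 1475.7 against 896.7 and 1181.5 CPM (0.51, SE 0.136, adjusted p = 0.261), and NPC-like cells 289.4 and 264.9 against 170.1 and 96.0 CPM (0.93, SE 0.226, adjusted p = 0.0855). Within the NPC-like class the ko mice were higher in the cluster led by Tmem100, at 348.0 and 369.0 against 221.0 and 126.0 CPM, and the genotypes overlapped in the cluster led by Cited1, at 51.8 and 69.4 against 59.9 and 59.6 CPM. In PT-like cells the ko mice were higher in both clusters, at 1220.0 and 1190.0 against 910.0 and 1040.0 CPM in the one led by Spp2. In the one led by Aadat they had 2110.0 and 1870.0 against 801.0 and 1450.0 CPM. The cluster led by Aadat held a larger share of the PT-like cells in both ko mice than in either wt mouse. The part of this makeup, and of the podocyte markers given above for NPC-like cells, in the class values was not tested. S-shaped body-like cells had 480.0 and 445.0 against 333.6 and 330.7 CPM (0.48, SE 0.108, adjusted p = 0.291), a fold that was called in 7 of 18 alternatives. The fold furthest from 0 was in erythroid-like cells, with 327.9 and 383.7 against 111.7 and 75.4 CPM on 80, 148, 80 and 33 UMIs (1.205, SE 0.263, adjusted p = 0.363). It was called by DESeq2 (adjusted p = 0.0478) and without the filter on low counts (adjusted p = 0.04), and ranged from 0.005 to 1.64 over all alternatives. There the free RNA estimate was 80.04 to 108.48 CPM, and erythroid markers, with 5 of 7 lower in both ko mice and none at 0, summed to 608850.0 and 483036.3 CPM against 707307.6 and 698185.7. Their part in the result was not tested. Both ko mice were above both wt mice in 9 classes and below in 1, immune-like cells. Over all genes and classes 22.2% of tests had both ko mice above both wt mice and 14.5% both below, and of the 2148 genes tested in all classes 3.31% had the ko mice above in as many classes as Igfbp7. The NPC-like fold was called by DESeq2 (adjusted p = 0.0475). It was 1.37 without mouse 3 and 0.58 without mouse 4, and the PT-like fold was 0.69 without mouse 4.

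Igfbp5 had a fold below 0 in 14 of 15 classes, with both ko mice below both wt mice in 4 and above in 0. Of the 2148 genes, 20.2% had the ko mice below in as many classes. Of these 4, loop of Henle-like cells had the fold furthest from 0, with 17.3 and 30.9 against 53.8 and 44.1 CPM (−1.04, SE 0.278, adjusted p = 0.387). It was called without the filter on low counts (adjusted p = 0.00167) and was −1.17 without mouse 4, beside a free RNA estimate of 16.31 to 21.9 CPM. Distal tubule-like cells had 49.3 and 47.7 against 87.7 and 58.2 CPM, intercalated cell-like cells 56.3 and 94.9 against 159.6 and 101.0 and PT-like cells 121.8 and 124.6 against 147.0 and 139.2. In stroma-like cells 252.7 and 385.6 against 351.3 and 706.3 CPM overlapped (log2 fold change −0.79, SE 0.305, adjusted p = 0.969, −1.20 without mouse 3 and −0.20 without mouse 4), and in mural-like cells, its highest class, 1229.2 and 761.3 against 1076.0 and 898.9 CPM did as well.

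Igfbp3 in endothelia-like cells measured 435.3 and 378.2 CPM in ko mice and 938.3 and 580.6 in wt mice (log2 fold change −0.97, SE 0.239, adjusted p = 0.638). The ko mice were lower without overlap, and the fold was −0.53 without mouse 3 and −1.30 without mouse 4. Of 11060 genes tested in endothelia-like cells of all 4 mice, edgeR called 0 in either direction (702 at an unadjusted p under 0.05). DESeq2 called 4 with ko above and 4 with ko below wt. The endothelia-like cells were 2 clusters, and the one led by Tm4sf1 and Sox17 held 35 of 167 and 24 of 121 cells in ko mice against 5 of 160 and 13 of 111 in wt mice. In it Igfbp3 was at 365.0, 221.0 and 219.0 CPM in mice 1, 2 and 4, with too few cells for a value in mouse 3, and in the other cluster at 454.0 and 402.0 against 943.0 and 609.0 CPM. The 8 endothelial markers summed to 4931.8 and 5006.0 CPM in ko mice against 6564.3 and 5043.5 in wt mice, with 3 of 8 lower and 2 higher in both ko mice. Stroma markers, of the class next in Igfbp3, were lower in ko mice, at 48.9 and 112.1 against 143.1 and 272.5 CPM (4 of 8 lower in both, 0 higher). The part of cluster makeup and markers in the Igfbp3 values was not tested.

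Igfbp4 had folds between −0.96 and 0.20 with a median of −0.02, and in PT-like cells it measured 282.1 and 280.6 against 293.0 and 297.1 CPM. Igf2bp1 had folds between −0.56 and 0.37, and both ko mice were below both wt mice in 5 of 15 classes, among them early proximal tubule-like cells with 56.6 and 58.5 against 90.1 and 75.3 CPM. Both ko mice were below in 14.5% of tests over all genes and classes.

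When all assigned cells of a mouse were summed without classes, edgeR called 0 members (5 at an unadjusted p under 0.05, against 15.7% of all genes, and 3 by DESeq2, against 4.35%), where 0.194% of 16524 genes were called with ko above wt and 0.0121% with ko below. Igfbp7 measured 937.3 and 851.9 against 569.3 and 575.8 CPM (log2 fold change 0.60, SE 0.091, adjusted p = 0.0789) and Igfbp5 123.6 and 135.2 against 196.4 and 190.9 CPM (−0.63, SE 0.103, adjusted p = 0.0868). Igf1 had 39.4 and 24.6 against 19.6 and 12.7 CPM (0.93, SE 0.296, adjusted p = 0.23). In such sums a gene moves with the share of each cell type as well as with its level in a cell, and these cannot be told apart. Endothelia-like cells made up 12.69 and 8.115% of cells in ko mice against 5.82 and 6.143% in wt mice. Igfbp2 had the reverse sign of its NPC-like fold, with 55.7 and 57.7 against 98.8 and 65.5 CPM (−0.58, SE 0.203, adjusted p = 0.264), Igf2bp1 had 48.5 and 52.1 against 65.0 and 58.2 CPM (−0.34, SE 0.119, adjusted p = 0.271), and Insr gave −0.15 (SE 0.209, adjusted p = 0.779) and Igf1r −0.40 (SE 0.238, adjusted p = 0.489). Without mouse 3 Igf1, Igfbp5 and Igfbp7 were called in these sums (adjusted p = 0.0249, 0.00741 and 0.0114), and without mouse 4 Igfbp2, Igf1r, Insr, Igfbp5, Igfbp7 and Igf2bp1 (adjusted p between 4.98e-04 and 0.0151). The folds of Igf1r and Insr without mouse 3 were 0.02 and 0.18.

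The wider pathway was read from 4 lists of 67 genes in all, the members included, beside the shares of all tests given above (at an unadjusted p under 0.05, 3.02% with ko above and 3.5% with ko below wt, and by DESeq2 0.223% and 0.1%). Of 66 tests on 6 ligands and receptors 1 was called with ko above wt (Igf1 in PT-like cells) and 0 with ko below (6 and 4 at an unadjusted p under 0.05, 2 and 0 by DESeq2). Binding proteins and their proteases, 14 genes and 122 tests, had 3 calls with ko above wt and 1 below (16 and 20 at an unadjusted p under 0.05, 6 and 1 by DESeq2), against the 0.18% and 0.124% of all tests. The 25 genes of insulin and Igf signalling, from Irs1 and Irs2 to Akt1, Foxo1 and Mtor, had 0 calls in 295 tests by edgeR (6 with ko above and 21 with ko below wt at an unadjusted p under 0.05) and 0 by DESeq2, and the median of their log2 fold changes was −0.04 in NPC-like and 0.04 in PT-like cells, where that of all genes was −0.01 and 0.0. Of 215 tests on 22 genes of Lin28, let-7 processing and let-7 targets, 2 were called with ko above wt and 0 below (7 and 13 at an unadjusted p under 0.05, 2 and 0 by DESeq2), and the list's median was −0.16 in NPC-like cells.

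Igfbp6, a binding protein that prefers Igf2, was called with ko above wt in 2 classes. S-shaped body-like cells had 27.5 and 30.4 CPM in ko mice against 5.74 and 7.43 in wt mice (log2 fold change 2.17, SE 0.254, adjusted p = 0.0128), where 0.172% of genes were called with ko above wt. Distal tubule-like cells had 24.2 and 37.3 against 6.12 and 1.06 CPM (2.72, SE 0.475, adjusted p = 0.00908), on 30, 43, 15 and 1 UMIs. The S-shaped body-like call was lost with a minimum of 2500 UMIs (1.69, adjusted p = 0.0564) and with free RNA subtracted by markers (adjusted p = 0.0543), and the distal tubule-like call with cells assigned by tag share (adjusted p = 0.0558). In NPC-like cells (49.1 and 34.8 against 36.5 and 17.8 CPM) it did not separate the genotypes.

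Stc1, which inhibits the Igf binding protein protease Pappa, was lower in distal tubule-like cells of ko mice, at 34.8 and 26.9 against 84.5 and 88.9 CPM (log2 fold change −1.50, SE 0.236, adjusted p = 0.00486), and Ccnd2, a cyclin of the G1 phase, was higher there, at 110.7 and 141.3 against 49.0 and 43.4 CPM (1.41, SE 0.211, adjusted p = 0.00288). In that class 0.443% of genes were called with ko below wt and 0.476% with ko above. Each was outside the other genotype's range in both mice. Summed markers of neighbouring segments did not overlap between the genotypes in these distal tubule-like cells, and their part in the values of Stc1, Ccnd2 and Igfbp6 was not tested. Collecting duct markers summed to 1419.3 and 1008.4 CPM in ko mice against 1992.6 and 2969.9 in wt mice (5 of 8 lower in both ko mice), and intercalated cell markers to 180.2 and 167.4 against 291.0 and 336.5 (4 of 6 lower). Ureteric bud markers were higher, at 151.1 and 133.5 against 91.0 and 112.2 CPM (3 of 7 higher in both ko mice), none of the 3 lists had a marker at 0, and the distal tubule markers overlapped (3661.4 and 2654.2 against 2828.3 and 3703.1). Stc1 had a mean of 108.7 CPM in collecting duct-like cells and Ccnd2 one of 301.09 in ureteric bud-like cells. With k-means assignment and at resolution 0.4 the folds were −1.10 and −1.09 for Stc1 and 0.67 and 0.52 for Ccnd2, none of them called. Ccnd2 also lost its call with cells assigned by tag share (1.22, adjusted p = 0.0765) and with called genes left out of clustering (1.12, adjusted p = 0.0829).

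Igdcc3, an immunoglobulin superfamily gene and a known let-7 target, was called in NPC-like cells. It had 12.3 and 7.81 CPM in ko mice against 0.497 and 1.16 in wt mice, on 12, 11, 2 and 9 UMIs (log2 fold change 3.23, SE 0.588, adjusted p = 0.0244). The values rest on 34 UMIs, and the call was lost without mouse 1 (adjusted p = 0.543), mouse 2 (0.171) or mouse 3 (0.064). Its 3′ UTR holds 2 matches of the let-7 seed, which is found in 3.78% of UTRs of similar length, both followed by an A and shown here (GRCm38 chr9:65185707-65185730 and chr9:65185787-65185810, plus strand).
Igdcc3, first: tgtgactctcagcacCTACCTCAg
Igdcc3, second: agcccgaaagcactcCTACCTCAa
No member with such a match was called in NPC-like cells. Igf1r is given above, Igf2bp1 measured 58.3 and 68.2 against 71.8 and 64.9 CPM, Insr 16.4 and 21.3 against 28.3 and 16.4 CPM and Igfbp5 283.2 and 324.6 against 308.6 and 355.0 CPM, with the genotypes overlapping in each. Igfbp5 did not overlap within the 2 clusters, with ko below wt in the one led by Tmem100 (182.0 and 146.0 against 222.0 and 229.0 CPM) and above in the one led by Cited1 (694.0 and 659.0 against 496.0 and 510.0 CPM). Lin28b had 4 UMIs in these cells (2, 0, 0 and 2 in mice 1 to 4) and could not be tested. Ccnd2 held no match, nor did Igfbp2 and Igf1, the members that were called.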

How the data were processed

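The deposited values are raw UMI counts, made by the authors from 1 pooled 10x Genomics 3′ library with Cell Ranger (6.0.0 by the submitters' processing notes, 4 by the matrix header), with no selection of cells. The notes name GRCm38 without a role. No deposited column holds the authors' own comparisons. The feature reference names 4 tags as ko or wt mice, and 4508 cells with other tags were not used.

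Barcodes passed the order-of-magnitude rule for 24000 expected cells (at least 6890 UMIs, 21385 barcodes), a minimum of 200 detected genes and a ceiling of 10% mitochondrial UMIs, which left 19272. HTODemux (quantile 0.99) assigned 7363. Cells with several tags (4721) or none (2680) were left out. Scrublet marked 7.456% of assigned cells, and these were removed in an alternative only. Clustering used Seurat 5.3.0 with SCTransform, 30 principal components and resolution 0.8, without the members and pathway genes among the variable genes. Clusters were named from marker lists. The naming score (at least 0.4) was set after clusters were seen. A difference from the study may come from these rebuilt names.

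UMIs summed per mouse and class (at least 10 cells in every mouse) were tested over all genes with edgeR 4.0.16 (filterByExpr, TMM, quasi-likelihood F test, Benjamini-Hochberg, threshold 0.05). SE is the log2 fold change over the square root of F. Code was tested on simulated data. All members, Trim28 and called pathway genes are named, with 3 genes most like each member. Members and lists were chosen with earlier results of these data known. Intervals cover counting error only. DESeq2 1.42.0, filters, assignment, clustering, free RNA and left-out mice were the alternatives. Sequences come from RefSeq and the GRCm38 annotation.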

Additional observations from a re-analysis of the deposited data

Results flagged for a closer look

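The log2 fold change, ko over wt, differed between classes for Igfbp2 and for the targeted gene, by a test of the difference itself in 1 model of both classes. For Igfbp2 the log2 fold change in NPC-like cells was above that in PT-like cells by 2.124 (SE 0.297, adjusted p = 0.005, edgeR). In the PT-like cells of ko mice Igfbp2 measured 12.5 and 12.1 CPM, beside free RNA estimates of 10.5 and 10.7 CPM from markers and 1.56 and 1.52 CPM from haemoglobin. In 1 of the wt mice it was near the marker estimate too. The difference therefore does not by itself show an effect of genotype on Igfbp2 in PT-like cells. For Trim28 the fold was lower in NPC-like than in stroma-like cells by −2.678 (SE 0.238, adjusted p = 1.05e-04), lower in PT-like than in stroma-like cells by −1.489 (SE 0.233, adjusted p = 0.0164) and lower in NPC-like than in PT-like cells by −1.193 (SE 0.229, adjusted p = 0.0189). Over the alternatives the Trim28 fold ranged from −3.985 to −2.24 in NPC-like and from −2.971 to −1.31 in PT-like cells, ranges that overlapped. The part of free RNA in these differences was not tested. The difference between PT-like and stroma-like cells was not called without mouse 2 (adjusted p = 0.266), nor that between NPC-like and PT-like cells without mouse 1 (0.0515) or mouse 2 (0.318). For Igf1 the same model gave −3.464 for NPC-like minus PT-like cells (SE 0.788, adjusted p = 0.0495, and 0.139 and 0.35 without mouse 1 and mouse 2). The gene was too low for a test in NPC-like cells alone, at 2.04, 1.42, 2.98 and 2.06 CPM in mice 1 to 4 on 2, 2, 12 and 16 UMIs, near the 1.89 to 2.37 CPM of free RNA estimated from markers. It entered the model through its PT-like counts, so the value does not show that the effect of genotype on Igf1 differed between these classes. No group had the 4 samples that a check for single outlying samples needs.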

How the results depend on the processing

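Member tests called with ko above wt numbered 2, with 4 by DESeq2, 8 without the filter on low counts, 4 with k-means assignment, and 1 each with the members kept among the clustering genes, with called genes left out of them, at resolution 0.4, with free RNA subtracted by haemoglobin and, chosen after seeing the data, by markers. Leaving out a mouse gave 0 (mouse 1), 1 (mouse 2), 8 (mouse 3) and 11 (mouse 4), the lone mouse being assumed to vary like the other genotype's pair. Calls with ko below wt numbered 0, but 12 without the filter, and 0 to 30 with a mouse left out, the highest without mouse 4 and 3 without mouse 3. Over all genes 405 tests were called, 3540 without the filter, and 300 to 14995 with a mouse left out (2852 without mouse 3, 14995 without mouse 4). Over all cells 0 members were called, 3 by DESeq2, 3 without the filter, and 0 to 6 with a mouse left out. The interaction called 2 differences of members between classes, that of Igf1 being set by a class too low to test, and 1 to 5 with a mouse left out. Igfbp2 in NPC-like cells kept its call in 17 of 18 alternatives and lost it without mouse 1. Leaving out the clusters mostly of mouse 3 removed no NPC-like cells, so that alternative could not change the call. At resolution 0.4 the counts of genes tested and called in NPC-like cells were the same as reported. Leaving out mice moved the log2 fold change of Igfbp2 in stroma-like cells between −0.74 and 0.89, where it reversed without mouse 2 (0.18) and without mouse 3. In erythroid-like cells they moved it between −0.393 and 1.067. There it reversed without mouse 1 (−0.03) and mouse 4, with the members kept among the clustering genes (−0.345) or called genes left out of them (−0.414) and at both other resolutions (−0.299). The fold over all cells lay between −0.71 and 0.02 for Igf1r and between −0.41 and 0.18 for Insr, both reversed without mouse 3. The cause was not tested. Of the printed folds and differences of folds over all alternatives 529 stayed on their side of the threshold, 56 passed it, 31 lost it and 10 reversed. The highest value of Igf1 in PT-like cells, 8.21, came with wt counts that subtraction took to 0. Lin28b, at 85 UMIs, limits what could be seen at this depth. No paired analysis was possible because the groups that share replicate numbers are bulk libraries not analysed here, and the mice of the pool carry no shared number.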
